A study of Homo sapiens with 18 samples.

Results

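The genes described here encode extracellular proteases and their inhibitors, measured in podocytes grown on curved surfaces of 2 kinds. They are 5 matrix metalloproteinases (MMP1, MMP2, MMP3, MMP10 and MMP14), the related protease ADAMTS1 and 3 tissue inhibitors of metalloproteinases (TIMP1, TIMP2 and TIMP3). They were chosen by symbol, 9 of the 58735 genes in the count table, and 8 of the 9 passed the filter on low counts; MMP3 did not, and TIMP3 passed only through the THP-1 libraries. RNA came from PODO/TERT256, human podocytes made immortal by telomerase and kept as a cell line, cultured on 3D hemispheres whose surface was fractal or smooth. On each surface the cells were exposed to THP-1 macrophages, that is, macrophages made from a monocytic leukaemia line of human origin (the THP-1 groups), were given the cytokines TNF-α and IL-6 (the cytokine groups), or were left as controls. The 6 groups were thus fractal THP-1, smooth THP-1, fractal cytokines, smooth cytokines, fractal control and smooth control, with 3 libraries each. A single immortalised line carries all results, and the labels give neither doses nor times, nor whether the macrophages were still present when RNA was taken. Whether the 3 libraries of each group are separate cultures is not stated either, so p-values measure only the spread between these libraries, which may be technical.

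Podocytes are epithelial cells that wrap the capillaries of the kidney glomerulus and rest on the glomerular basement membrane, a sheet of type IV collagen, laminin and nidogen. Matrix metalloproteinases are zinc enzymes that cut such matrix proteins; they are made as inactive proforms, and TIMPs bind to their active site and block them. MMP14 is anchored in the plasma membrane, and together with TIMP2, which there acts as a bridge, it activates proMMP2. Transcript levels say nothing of these activation steps, which take place on the proteins.

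The libraries held 11488204 to 21264180 counts. Mitochondrial genes took 3.86% to 4.63% of the counts in 16 libraries, but 0.847% in fractal THP-1 replicate 3 and 8.09% in smooth cytokines replicate 2. These 2 libraries also stood apart from their own groups in a chi-square comparison of counts (57.1 and 58.2 per degree of freedom for the pairs with the first, 32 and 32.7 for the pairs with the second, 2.46 to 11.3 for all other pairs within a group). Results were therefore also computed without both. Markers bore out the podocyte label only in part. ACTN4, CD2AP, SYNPO and TJP1, which serve the cytoskeleton and the cell junctions of podocytes, were present in all libraries, at 651 to 1252, 114 to 194, 54.9 to 122 and 96.3 to 234 CPM (counts scaled to the library's TMM-adjusted total, in parts per 1000000). The transcription factor gene LMX1B had 0 counts in all 18 libraries, and the slit diaphragm gene NPHS1 and the transcription factor gene WT1 had 6 and 37 counts in all. The summed level of 21 monocyte and macrophage markers ran from 28.1 to 31.7 CPM in fractal THP-1, from 56.9 to 62.7 CPM in smooth THP-1, from 2.23 to 3.44 CPM in fractal cytokines, from 4.63 to 5.30 CPM in smooth cytokines, from 1.88 to 3.32 CPM in fractal controls and from 2.00 to 3.05 CPM in smooth controls. Of the 21 markers, 15 had a count in fractal THP-1 and 18 in smooth THP-1, with CD68 and LYZ at 5 counts each over all libraries and C1QB and MARCO at 0. The marker level thus differed between the 2 surfaces as well as between treatments, and its part in the results on the THP-1 groups was not tested. The other marker lists moved as well. The summed level of 13 podocyte markers ran from 978 to 1169 CPM in fractal THP-1, 1435 to 1632 CPM in smooth THP-1, 1356 to 1522 CPM in fractal cytokines, 1179 to 1391 CPM in smooth cytokines, 1724 to 1739 CPM in fractal controls and 1683 to 1762 CPM in smooth controls. That of 6 markers of parietal epithelial cells, which line Bowman's capsule, was of like size, at 1337 to 1835 CPM in fractal THP-1, 1874 to 1953 CPM in smooth THP-1, 1294 to 1442 CPM in fractal cytokines, 1510 to 1778 CPM in smooth cytokines, 1306 to 1352 CPM in fractal controls and 1330 to 1365 CPM in smooth controls, with PAX2 at 0 counts. That of 9 mesangial, fibroblast and smooth muscle markers was 142 to 149 CPM in fractal THP-1, 194 to 196 CPM in smooth THP-1, 362 to 384 CPM in fractal cytokines, 190 to 254 CPM in smooth cytokines, 369 to 376 CPM in fractal controls and 477 to 522 CPM in smooth controls, with ITGA8 at 0 counts. The 6 endothelial markers summed to at most 24.4 CPM. The part of these in the results was not tested. In these bulk samples, fewer cells of a type and less RNA per cell cannot be told apart.

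Of the 9 genes, 4 have a promoter sequence in the RefSeq table used here (MMP10, MMP14, TIMP1 and TIMP3). The bases before the gene start are shown for MMP14 and TIMP1, whose transcripts moved in opposite directions under cytokines, and for TIMP3, which was nearly silent outside the THP-1 groups. Sequences are from RefSeq on GRCh38.p14, plus strand, 5′ to 3′. The table gives 250 bases before its own transcript start, which lay inside the gene as GENCODE 29 has it by 28 bases for MMP14, 123 for TIMP1 and 4 for TIMP3; those bases are left out, and positions are counted back from the GENCODE start. Capitals mark matches on either strand to TGAGTCA (the site of AP-1 factors), TGAGTAA (a variant of it), TATAAA (the TATA box) and GGGCGG (the GC box).
MMP14, chr14:22836335-22836556: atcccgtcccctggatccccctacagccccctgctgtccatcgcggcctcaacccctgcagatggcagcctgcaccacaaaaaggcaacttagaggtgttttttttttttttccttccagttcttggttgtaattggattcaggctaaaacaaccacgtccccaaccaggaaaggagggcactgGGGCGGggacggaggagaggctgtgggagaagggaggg
TIMP1, chrX:47582186-47582312: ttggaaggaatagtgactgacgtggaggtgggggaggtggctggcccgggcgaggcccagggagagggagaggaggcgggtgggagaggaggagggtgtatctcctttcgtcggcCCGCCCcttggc
TIMP3, chr22:32801455-32801700: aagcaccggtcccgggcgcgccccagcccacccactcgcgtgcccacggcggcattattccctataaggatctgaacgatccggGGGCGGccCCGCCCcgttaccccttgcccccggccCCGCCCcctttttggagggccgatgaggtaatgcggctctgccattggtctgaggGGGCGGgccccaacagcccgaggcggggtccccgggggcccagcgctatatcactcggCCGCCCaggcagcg
The TIMP3 window held GGGCGG 5 times, at 162, 154, 127, 72 and 14 bases before the start, and 3.98% of the 35116 windows in the table held it as often over the same 246 bases. The MMP14 window held it once, 38 bases before the start, and the TIMP1 window once, 12 bases before the start on the minus strand; 39.2% and 21.8% of windows held it over the same 222 and 127 bases. None of the other motifs was in the bases shown for these 3 windows. The bases left out, 123 of them next to the RefSeq start for TIMP1, were not searched, so no absence is claimed there. GC content was 56.3% for MMP14, 67.7% for TIMP1 and 72.0% for TIMP3, where the medians over all windows cut to the same bases were 57.7%, 55.9% and 58.1%.

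On GRCh38 with GENCODE 29, MMP10 (102770503 to 102780628), MMP1 (102789920 to 102798160) and MMP3 (102835801 to 102843803) lie next to each other on the minus strand of chromosome 11. MMP2 lies on chromosome 16 (55389700 to 55506691, plus strand), MMP14 on chromosome 14 (22836557 to 22849027, plus strand), ADAMTS1 on chromosome 21 (26835747 to 26845409, minus strand), TIMP1 on chromosome X (47582313 to 47586789, plus strand), TIMP2 on chromosome 17 (78852977 to 78925387, minus strand) and TIMP3 on chromosome 22 (32801701 to 32863043, plus strand). The libraries kept no strand. The exons of MMP1 share 150 bases with the pseudogene WTAPP1, which lies opposite to it, but WTAPP1 had 73 counts over all libraries where MMP1 had 98457. The transcripts sharing exon bases with MMP2 and TIMP2 had at most 124 counts, against 303762 and 116908. The 3 clustered MMP genes and the TIMPs are related in sequence, and how reads matching several genes were counted is not given in the sources used here.

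Per kilobase of exon, TIMP1 had the highest mean level of the 9 genes in fractal THP-1 and fractal cytokines, and MMP14 in the other 4 groups. In fractal THP-1 the mean level per kilobase was 476 CPM for TIMP1 and 423 CPM for MMP14. In smooth controls it was 135 CPM for TIMP1 and 489.5 CPM for MMP14. MMP3 and TIMP3 were below 1 CPM per kilobase in all 6 groups. The order of the others depended on the group: MMP1, at 243 CPM per kilobase in smooth controls, was above MMP2 (133 CPM per kilobase) and TIMP1 there, and at 93.3 CPM per kilobase in fractal THP-1 it was below both (318 CPM per kilobase for MMP2). The plot of levels by library gives CPM not divided by length.

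**Figure D1:**
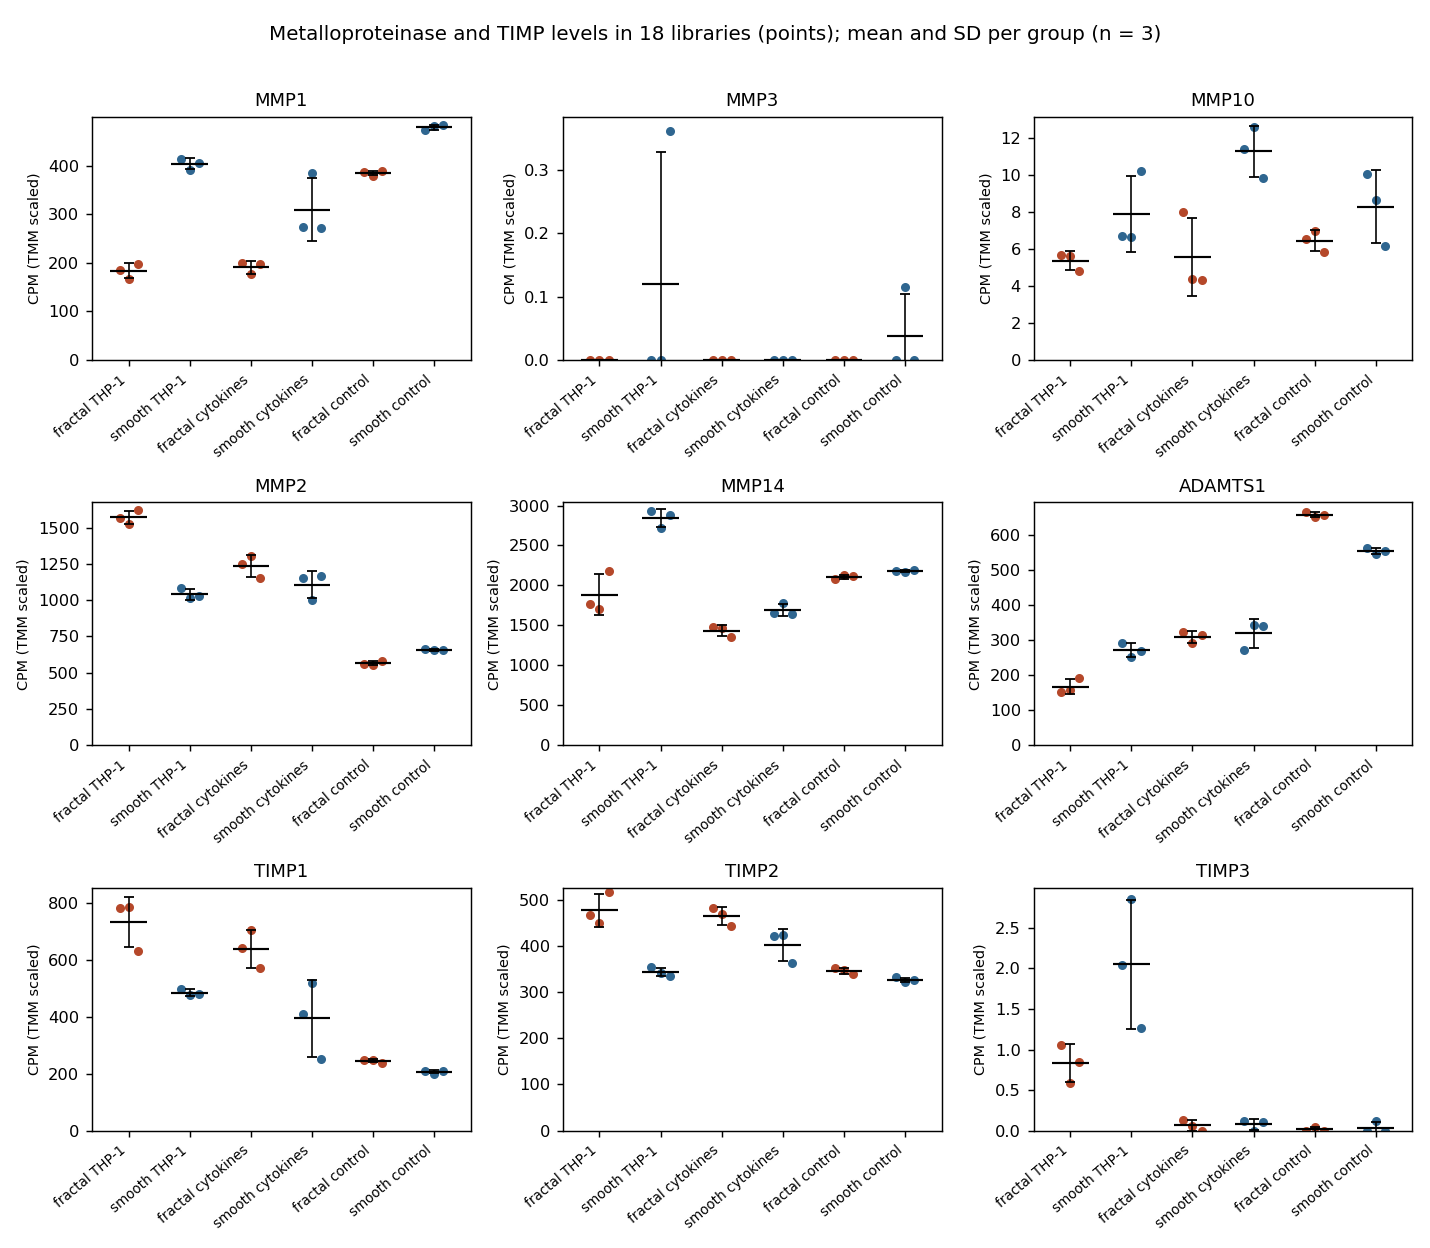
Level of each of the 9 genes (CPM, TMM scaled, linear axes from 0) in the 18 libraries by group, with fractal libraries in red and smooth libraries in blue; bars give the mean and SD of 3 libraries. MMP1 was at 167 to 199 CPM in fractal THP-1 and at 473 to 483 CPM in smooth controls, while TIMP1 was at 631 to 786 CPM in fractal THP-1 and at 201 to 211 CPM in smooth controls.

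MMP1, the interstitial collagenase that cuts fibrillar collagens, was lower in both treated groups on the fractal surface than in the fractal controls, and lower on the fractal than on the smooth surface under either treatment. It read 186, 167 and 199 CPM in fractal THP-1, 201, 176 and 197 CPM in fractal cytokines and 387, 379 and 388 CPM in fractal controls. No treated fractal library overlapped with the controls. The log2 fold change was -1.07 ± 0.10 for THP-1 (± SE, adjusted p 2.93e-09) and -1.01 ± 0.10 for cytokines (adjusted p 3.37e-08, both from the quasi-likelihood test of edgeR, adjusted by Benjamini-Hochberg, as are all adjusted p-values here unless another tool is named). On the smooth surface the values were 414, 391 and 405 CPM in THP-1, 274, 384 and 271 CPM in cytokines and 473, 481 and 483 CPM in controls. Both treated groups lay below their controls, and cytokine replicate 2, one of the libraries that stood apart, was the highest of its group. The log2 fold change on the smooth surface was -0.63 ± 0.10 for cytokines (adjusted p 2.84e-05) and -0.25 ± 0.10 for THP-1, which did not pass the threshold (adjusted p 0.0558) although the libraries did not overlap. Without the 2 libraries that stood apart the THP-1 value was again -0.25, with an adjusted p of 0.000145. Smooth THP-1 was above smooth cytokines by 0.38 ± 0.10 (adjusted p 0.00598).

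Fractal over smooth, MMP1 gave -1.14 ± 0.10 in THP-1 (adjusted p 6.86e-09), -0.70 ± 0.10 in cytokines (adjusted p 4.47e-05) and -0.32 ± 0.10 in controls (adjusted p 0.125). The libraries of the 2 surfaces did not overlap in any of the 3 conditions. The response to THP-1 itself differed between surfaces: the interaction, which is the fractal minus the smooth log2 fold change, was -0.82 ± 0.14 (adjusted p 0.000208). For cytokines the interaction was -0.38 ± 0.14 and did not pass (adjusted p 0.186).

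The 2 stromelysins, which cut proteoglycans, laminin and fibronectin and can activate other proMMPs, were low. MMP3 had 8 counts in all, 6 in smooth THP-1 replicate 3 and 2 in smooth control replicate 2, and was not tested. Its 0 counts in the 4 other groups allow up to 0.0536 CPM in fractal controls and 0.0662 CPM in fractal THP-1 (3 counts over the group, counting error only). MMP10 read 7.98, 4.36 and 4.33 CPM in fractal cytokines, against 11.4, 12.6 and 9.84 CPM in smooth cytokines. All 3 fractal values lay below the smooth ones, with a log2 fold change of -1.02 ± 0.23 (adjusted p 0.00701), but without fractal cytokines replicate 2 or replicate 3 the adjusted p was 0.0649 or 0.0630. MMP10 means in the other groups were 5.37 ± 0.492 CPM in fractal THP-1, 7.87 ± 2.05 CPM in smooth THP-1, 6.44 ± 0.572 CPM in fractal controls and 8.28 ± 1.97 CPM in smooth controls (SD, n = 3 each). In no comparison of a treatment with controls did MMP10 pass the threshold (adjusted p 0.165 to 0.819).

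MMP2, gelatinase A, which degrades denatured collagen and type IV collagen, was higher under both treatments on both surfaces. It read 1564, 1526 and 1619.5 CPM in fractal THP-1, 1247, 1307 and 1155 CPM in fractal cytokines and 560.3, 554 and 584 CPM in fractal controls. The 3 groups did not overlap. The rise over fractal controls was 1.47 ± 0.08 for THP-1 (adjusted p 3.93e-14) and 1.13 ± 0.08 for cytokines (adjusted p 4.37e-11).

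On the smooth surface MMP2 read 1085, 1012 and 1030.3 CPM in THP-1, 1154, 1001 and 1169 CPM in cytokines and 665, 653 and 657 CPM in controls. The 2 treated groups overlapped with each other and lay above the controls. The rise over smooth controls was 0.66 ± 0.08 for THP-1 (adjusted p 1.50e-07) and 0.75 ± 0.08 for cytokines (adjusted p 2.89e-08). The rise with THP-1 was larger on the fractal surface, with an interaction of 0.81 ± 0.11 (adjusted p 6.44e-06). That with cytokines had an interaction of 0.38 ± 0.11, just short of the threshold (adjusted p 0.0547) and past it under 7 of the alternative settings tried. Fractal over smooth, MMP2 was 0.59 ± 0.07 in THP-1 (adjusted p 2.10e-06), 0.16 ± 0.07 in cytokines (adjusted p 0.343) and -0.22 ± 0.07 in controls (adjusted p 0.177), so that the controls had the opposite sign, without passing the threshold.

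MMP14, the membrane-type enzyme that activates proMMP2, did not follow MMP2. It read 1771, 1707 and 2182 CPM in fractal THP-1, 1483, 1468 and 1355 CPM in fractal cytokines and 2081, 2130.2 and 2116 CPM in fractal controls. All cytokine libraries were below the controls, whereas THP-1 replicate 3, one of the 2 libraries that stood apart, was above them and its 2 partners below. Cytokines gave -0.56 ± 0.08 (adjusted p 1.36e-05) and THP-1 -0.16 ± 0.08, which did not pass (adjusted p 0.109). Without fractal THP-1 replicate 3 the THP-1 value was -0.28 (adjusted p 0.000108).

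In smooth libraries MMP14 read 2932, 2716 and 2886 CPM in THP-1, 1649.7, 1779 and 1641 CPM in cytokines and 2183, 2174 and 2199 CPM in controls. The THP-1 libraries were the highest of the series for this gene and the cytokine libraries were below the controls. The change was 0.38 ± 0.08 with THP-1 (adjusted p 0.000750) and -0.37 ± 0.08 with cytokines (adjusted p 0.00136). The THP-1 interaction was -0.54 ± 0.12 (adjusted p 0.00227). Fractal THP-1 was below smooth THP-1, with -0.59 ± 0.08 (adjusted p 8.39e-06), while in controls the difference was -0.05 ± 0.08, with a 95% interval of -0.22 to 0.12.

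ADAMTS1, a secreted protease with thrombospondin repeats that cuts the proteoglycans versican and aggrecan, was highest in the controls. It read 153, 157 and 193 CPM in fractal THP-1, 325, 291 and 315 CPM in fractal cytokines and 668, 652 and 658 CPM in fractal controls. The 3 groups did not overlap, and the log2 fold change was -1.98 ± 0.10 with THP-1 (adjusted p 1.14e-14) and -1.09 ± 0.09 with cytokines (adjusted p 2.88e-09). Smooth libraries read 292, 253 and 270.1 CPM in THP-1, 273, 344 and 342 CPM in cytokines and 564, 548 and 554 CPM in controls. Both treated groups were below the controls there too, with -1.03 ± 0.09 with THP-1 (adjusted p 3.46e-09) and -0.80 ± 0.09 with cytokines (adjusted p 3.25e-07). The fall with THP-1 was larger on the fractal surface, with an interaction of -0.95 ± 0.13 (adjusted p 1.28e-05), the largest in size among the 5 genes of this group whose interaction passed.

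TIMP1, a broad inhibitor of soluble MMPs and a known cytokine target, was higher under both treatments on both surfaces. It read 784, 786 and 631 CPM in fractal THP-1, 641, 704 and 572 CPM in fractal cytokines and 248, 249 and 239 CPM in fractal controls. The lowest treated fractal library was at 572 CPM, and all controls were below 250 CPM. The rise was 1.58 ± 0.17 with THP-1 (adjusted p 5.38e-07) and 1.38 ± 0.17 with cytokines (adjusted p 8.52e-06).

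On the smooth surface TIMP1 read 498, 477 and 479 CPM in THP-1, 411, 521 and 252 CPM in cytokines and 211, 201 and 211 CPM in controls. The smooth cytokine libraries spread widely, from 252 to 521 CPM, with replicate 2, which stood apart, as the highest. The rise was 1.22 ± 0.17 with THP-1 (adjusted p 2.14e-05) and 0.93 ± 0.17 with cytokines (adjusted p 0.000497); with both libraries that stood apart left out, the cytokine value was 0.67. With only the 2 groups compared in the fit, the rise with cytokines was again 0.93 but did not pass (adjusted p 0.0629). Fractal over smooth, TIMP1 was higher by 0.60 ± 0.17 in THP-1 (adjusted p 0.0173) and by 0.70 ± 0.17 in cytokines (adjusted p 0.0207). Both calls were close to the threshold: leaving out any of 4 single libraries in the first case or any of 3 in the second gave adjusted p-values of 0.0568 to 0.112, and with no filter on low counts neither passed (adjusted p 0.0813 and 0.118). The value in cytokines was 0.45 without smooth cytokines replicate 3. The interactions of TIMP1 were 0.36 ± 0.24 for THP-1 and 0.45 ± 0.24 for cytokines, and neither passed (adjusted p 0.381 and 0.440).

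TIMP2, which inhibits MMP2 and also takes part in its activation by MMP14, was higher under cytokines on both surfaces and under THP-1 on the fractal surface. It read 466, 449 and 516 CPM in fractal THP-1, 482, 469.7 and 444 CPM in fractal cytokines and 353, 347 and 339 CPM in fractal controls. Both treated groups were above the controls, by 0.46 ± 0.07 with THP-1 (adjusted p 1.29e-05) and 0.43 ± 0.07 with cytokines (adjusted p 0.000108). Smooth libraries read 354, 341 and 336 CPM in THP-1, 422, 423 and 362 CPM in cytokines and 332, 322 and 326 CPM in controls. It was higher with cytokines there, by 0.30 ± 0.07 (adjusted p 0.00351), while with THP-1 the difference was 0.07 ± 0.07, with a 95% interval of -0.08 to 0.23. The THP-1 interaction was 0.39 ± 0.11 (adjusted p 0.0139), and its adjusted p was 0.0510 without fractal control replicate 3. Fractal THP-1 was above smooth THP-1 by 0.47 ± 0.07 (adjusted p 4.31e-05).

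TIMP3, the inhibitor that binds to the matrix and also blocks ADAM and ADAMTS proteases, was nearly absent outside the THP-1 groups and passed the filter only through them, so its higher level there is a description and no test of it is given. It had 38 counts in fractal THP-1, 106 in smooth THP-1, 3 in fractal cytokines, 4 in smooth cytokines, 1 in fractal controls and 2 in smooth controls. The 3 libraries read 1.06, 0.591 and 0.843 CPM in fractal THP-1 and 2.04, 2.85 and 1.26 CPM in smooth THP-1, and all others were at or below 0.133 CPM. Relative to the totals, the counts in THP-1 were 47.0 times those of controls on the fractal surface and 52.5 times on the smooth surface. These ratios pool the 3 libraries of a group, rest on the 1 and 2 counts of the controls and are only a description. The values of fractal THP-1 lay below those of smooth THP-1 without overlap.

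ITGB2, MMP9 and A2M passed the filter only through THP-1 libraries, as TIMP3 did, so their higher levels there are a description too. ITGB2, the integrin chain of leukocytes, averaged 8.61 ± 1.95 CPM in fractal THP-1 and 22.2 ± 0.994 CPM in smooth THP-1, with at most 0.363 CPM in any other library. MMP9, gelatinase B, which macrophages secrete, averaged 0.705 ± 0.931 CPM in fractal THP-1 and 4.26 ± 0.675 CPM in smooth THP-1, and was listed at 0 in all 3 smooth controls. A2M, the broad plasma protease inhibitor, averaged 3.82 ± 1.45 CPM in fractal THP-1 and 9.41 ± 1.13 CPM in smooth THP-1 and had 0 counts in both control groups (SD, n = 3 each). The levels of these genes were higher in smooth THP-1 than in fractal THP-1, as was the macrophage marker sum. ITGB2 is itself a part of that sum. The part of macrophage RNA in the TIMP3 counts was not tested.

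**Figure D2:**
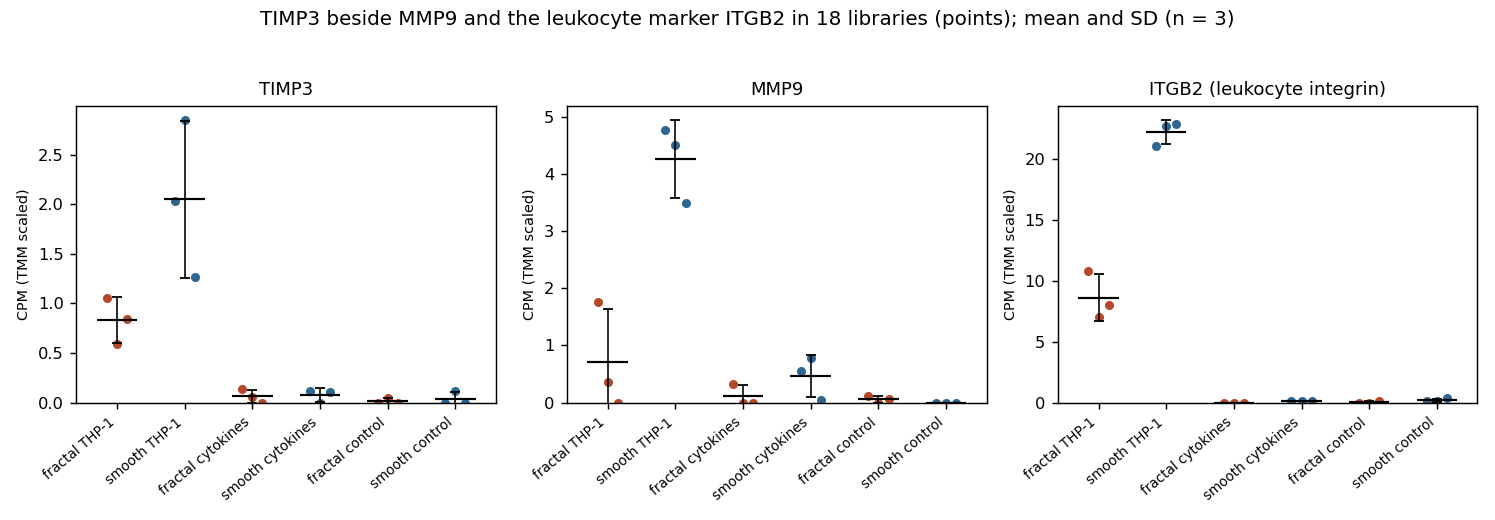
Level of TIMP3, MMP9 and ITGB2 (CPM, TMM scaled, linear axes from 0) in the 18 libraries by group, fractal in red and smooth in blue, with mean and SD of 3 libraries. TIMP3 was at 1.26 to 2.85 CPM in smooth THP-1 and at or below 0.133 CPM in every cytokine and control library.

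Set against controls, genes of this group moved in both directions under each treatment, as did many others. With THP-1, 50.5% of all tested genes passed in either direction on the fractal surface and 35.1% on the smooth surface. With cytokines the shares were 25.8% and 25.7%. The counts below leave out TIMP3, which passed the filter only through THP-1. With THP-1 on the fractal surface, 3 of the 7 other tested genes rose (MMP2, TIMP1 and TIMP2) and 2 fell (MMP1 and ADAMTS1), where 25.0% of all 16129 tested genes rose and 25.5% fell. With THP-1 on the smooth surface, 3 of 7 rose (MMP2, MMP14 and TIMP1) and 1 fell (ADAMTS1), where 17.3% of all tested genes rose and 17.7% fell. With cytokines 3 of 7 rose (MMP2, TIMP1 and TIMP2) and 3 fell (MMP1, MMP14 and ADAMTS1) on the fractal surface, where 13.0% of all tested genes rose and 12.9% fell. The counts for cytokines on the smooth surface were again 3 (MMP2, TIMP1 and TIMP2) and 3 (MMP1, MMP14 and ADAMTS1), where 13.2% rose and 12.4% fell. Every comparison of a treatment with controls on 1 surface shares those controls with the other treatment. The median log2 fold change of the 7 genes was -0.16 and 0.07 with THP-1 and -0.22 and 0.30 with cytokines on the fractal and smooth surfaces, where the medians of all tested genes were 0.04, 0.02, 0.03 and 0.01. The plot of treatment effects shows the same 7 genes.

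**Figure D3:**
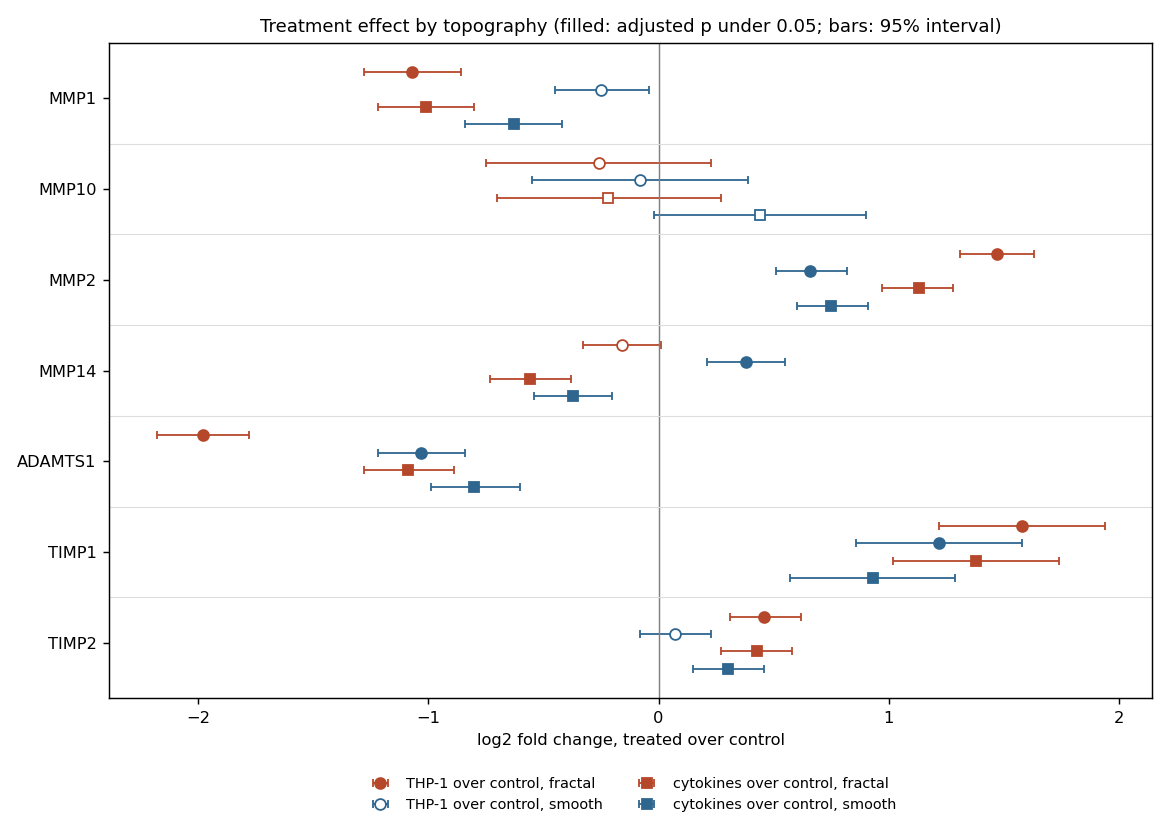
Log2 fold change of treated over control (x axis) for 7 genes, with circles for THP-1, squares for cytokines, red for the fractal and blue for the smooth surface; bars are 95% intervals of the edgeR fit and filled symbols have an adjusted p under 0.05. ADAMTS1 fell in all 4 comparisons (-1.98 to -0.80) and TIMP1 and MMP2 rose in all 4, while MMP14 rose with THP-1 on the smooth surface (0.38) and fell with cytokines on both.

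Set against each other, THP-1 and cytokines differed for MMP14, MMP2 and ADAMTS1 on the fractal surface. There THP-1 was above cytokines by 0.39 ± 0.08 for MMP14 (adjusted p 0.000524) and 0.34 ± 0.07 for MMP2 (adjusted p 0.000740), and below it for ADAMTS1, with -0.89 ± 0.09 (adjusted p 3.42e-08). Thus 2 of 7 were higher and 1 lower, where 15.4% of all tested genes were higher and 20.5% lower. On the smooth surface MMP14 was higher in THP-1 by 0.75 ± 0.08 (adjusted p 1.28e-07), MMP1 was higher too, and TIMP2 was lower, with -0.23 ± 0.07 (adjusted p 0.0276), where 10.6% of all tested genes were higher and 11.8% lower. TIMP1 did not pass on either surface, with 0.20 ± 0.17 on the fractal and 0.30 ± 0.17 on the smooth one. Its value on the smooth surface was 0.55 without smooth cytokines replicate 2 and then passed (adjusted p 0.00963).

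The effect of the surface depended on the condition. Under THP-1, 3 of the 7 genes were higher on the fractal surface (MMP2, TIMP1 and TIMP2) and 3 lower (MMP1, MMP14 and ADAMTS1), where 8.25% of all tested genes were higher and 11.7% lower. Under cytokines 1 was higher (TIMP1) and 2 were lower (MMP1 and MMP10), where 1.72% of all tested genes were higher and 2.74% lower. In controls 0 of 7 passed, where 0.651% of all tested genes were higher and 1.12% lower. For the controls the fit used a spread estimated from all 6 groups, although the control libraries differed least within their groups (2.46 to 3.24 per degree of freedom in the chi-square comparison). Unadjusted p-values of the edgeR test were under 0.05 for 3 of the 7 (MMP1, MMP2 and ADAMTS1). The share of all tested genes at that cut was not computed, so this count is no result about these genes. DESeq2 and limma-voom called 0, where they called 3.57% and 1.74% of all genes. A fit of the 6 control libraries alone called 5 (MMP1, MMP2, ADAMTS1, TIMP1 and TIMP2), where it called 19.4% of all the 14187 genes it tested. The log2 fold changes of the 5 were -0.32 to 0.24. The largest of these was MMP1, with 387, 379 and 388 CPM in fractal controls and 473, 481 and 483 CPM in smooth controls.

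**Figure D4:**
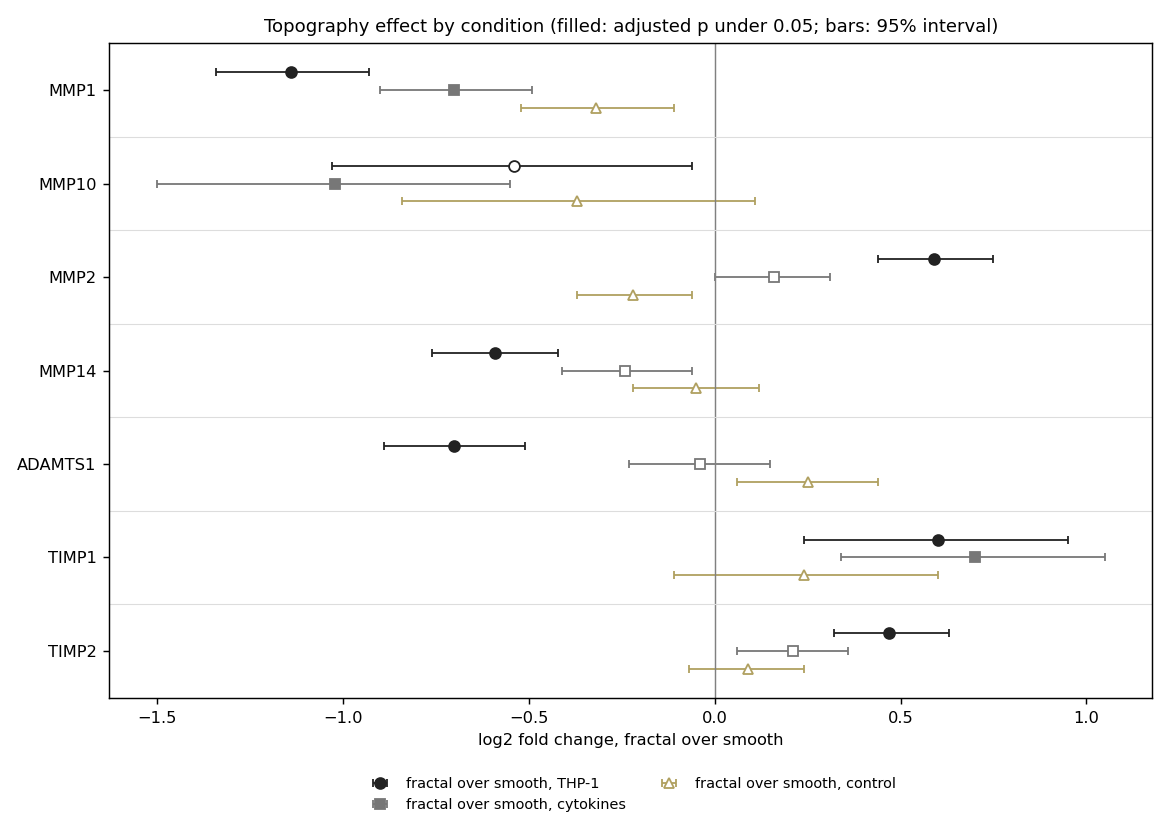
Log2 fold change of fractal over smooth (x axis) for 7 genes in THP-1 (circles), cytokines (squares) and controls (triangles); bars are 95% intervals of the edgeR fit and filled symbols have an adjusted p under 0.05. MMP1 lay left of 0 in all 3 conditions (-1.14, -0.70 and -0.32), whereas ADAMTS1 was at -0.70 in THP-1 and 0.25 in controls, and MMP2 at 0.59 in THP-1 and -0.22 in controls.

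The interaction with THP-1 passed for 5 of the 7 genes, 2 with a positive value (MMP2 and TIMP2) and 3 with a negative one (MMP1, MMP14 and ADAMTS1), where 5.35% of all tested genes had a positive and 7.88% a negative interaction past the threshold. The interaction with cytokines passed for 0 of 7, where 1.28% of all tested genes had a positive and 1.43% a negative one. Unadjusted p-values of the edgeR test were under 0.05 for MMP1, MMP2 and ADAMTS1. The share of all tested genes at that cut was not computed here either. DESeq2 and limma-voom called 1 gene, MMP2, where they called 4.62% and 2.65% of all genes. All 5 genes kept the sign and the call of the THP-1 interaction without both libraries that stood apart, with values of -0.88 for MMP1, 0.78 for MMP2, -0.66 for MMP14, -1.06 for ADAMTS1 and 0.33 for TIMP2. Fractal and smooth THP-1 also differed in the macrophage marker sum given above, with the lower sum on the fractal surface. Its part in these interactions was not tested.

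Ratios taken within a library do not depend on how libraries are scaled. For each count of TIMP1, MMP1 had 0.237, 0.212 and 0.315 counts in fractal THP-1 and 0.831, 0.821 and 0.845 counts in smooth THP-1. The ratio was 0.313, 0.250 and 0.344 in fractal cytokines and 0.667, 0.738 and 1.07 in smooth cytokines. It was 1.56, 1.52 and 1.62 in fractal controls and 2.25, 2.39 and 2.29 in smooth controls. The fractal values lay below the smooth ones in each condition without overlap, and all treated values lay below those of the controls.

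MMP14 over TIMP1 showed the same order of surfaces, at 2.63 ± 0.720 in fractal THP-1 and 5.87 ± 0.162 in smooth THP-1, 2.26 ± 0.151 in fractal cytokines and 4.65 ± 1.64 in smooth cytokines, and 8.60 ± 0.224 in fractal controls and 10.5 ± 0.254 in smooth controls (mean ± SD, n = 3 each). MMP2 over TIMP1 stood at 2.17 ± 0.348 in fractal THP-1, 2.15 ± 0.0273 in smooth THP-1, 1.94 ± 0.0823 in fractal cytokines, 3.12 ± 1.38 in smooth cytokines, 2.31 ± 0.116 in fractal controls and 3.17 ± 0.0733 in smooth controls. It was thus not higher under treatment than in controls of the same surface by its mean. Against TIMP2, by contrast, MMP2 stood higher under both treatments than in controls. This ratio was 3.30 ± 0.141 in fractal THP-1, 3.04 ± 0.0563 in smooth THP-1, 2.66 ± 0.109 in fractal cytokines and 2.775 ± 0.433 in smooth cytokines. In controls it was 1.64 ± 0.0743 on the fractal and 2.02 ± 0.0124 on the smooth surface. TIMP3 had too few counts for a ratio. Against TIMP2, MMP14 stood at 3.94 ± 0.245 in fractal THP-1 and 8.29 ± 0.311 in smooth THP-1, and at 6.09 ± 0.174 in fractal controls and 6.69 ± 0.101 in smooth controls. The ratio of MMP14 to TIMP2 transcripts was thus above that of smooth controls in smooth THP-1 and below that of fractal controls in fractal THP-1. No test was run on the ratios.

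**Figure D5:**
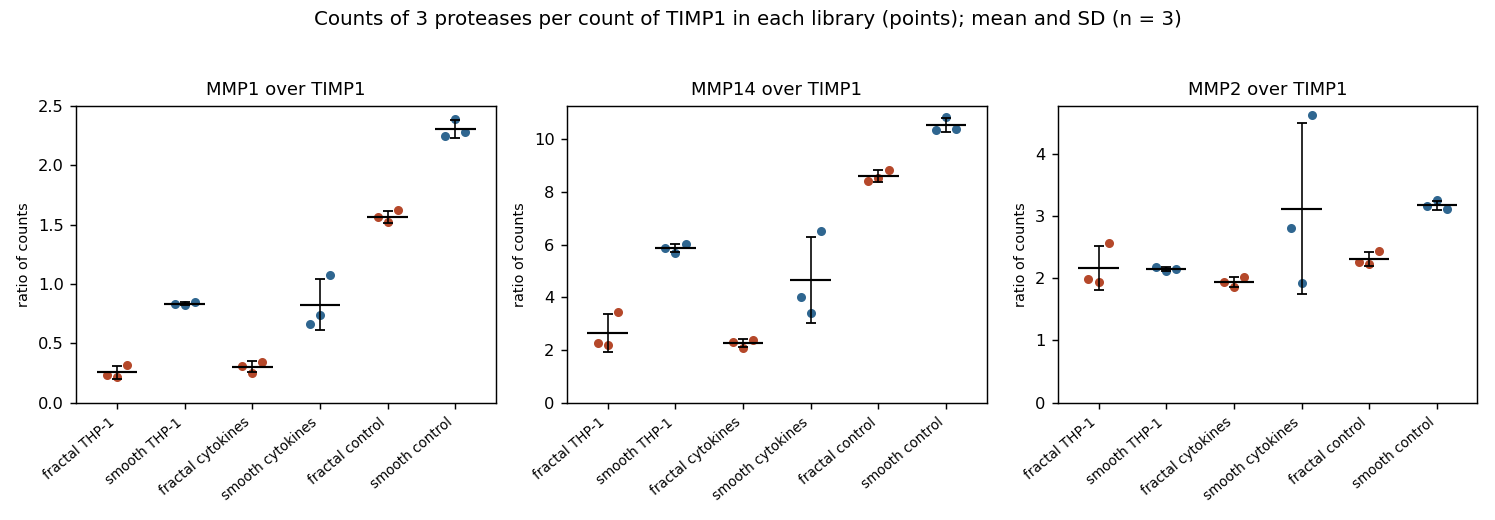
Counts of MMP1, MMP14 and MMP2 per count of TIMP1 (y axes, linear from 0) in the 18 libraries by group, fractal in red and smooth in blue, with mean and SD of 3 libraries. MMP1 over TIMP1 was 0.212 to 0.315 in fractal THP-1 and 2.25 to 2.39 in smooth controls.

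Other metalloproteinases, 18 MMP genes of which 11 passed the filter, were mostly low. MMP8, MMP9 and MMP25 passed only through THP-1 libraries and MMP13 only through cytokine libraries, so these 4 are described without a test. MMP25 was low in all 6 groups, with means from 0.323 CPM in smooth cytokines to 0.719 CPM in smooth THP-1. MMP7, matrilysin, had a mean of 4.97 ± 0.199 CPM in fractal THP-1 and 4.54 ± 0.132 CPM in smooth THP-1, against 0.488 ± 0.0564 CPM in fractal controls and 1.15 ± 0.260 CPM in smooth controls. Under cytokines its mean was 1.10 ± 0.636 CPM on the fractal and 3.52 ± 0.702 CPM on the smooth surface. MMP13, collagenase 3, was found mainly under cytokines, at 2.47 ± 1.00 CPM on the fractal and 1.12 ± 0.594 CPM on the smooth surface. MMP24, a membrane-type enzyme, fell under both treatments on both surfaces, to 10.4 ± 1.33 CPM in fractal cytokines, for example, against 23.9 ± 1.21 CPM in fractal controls (-1.20 ± 0.20, adjusted p 8.44e-05). In THP-1, MMP19 was lower on the fractal surface (-0.70 ± 0.15, adjusted p 0.00112), while MMP16, a membrane-type enzyme, was higher (0.41 ± 0.13, adjusted p 0.0277). With THP-1 against controls, 4 of the other 7 rose and 1 fell on the fractal surface (25.0% and 25.5% of all tested genes), and 4 rose and 1 fell on the smooth surface (17.3% and 17.7% of all tested genes).

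Among 18 other ADAMTS genes, of which 13 passed the filter, more rose than fell with THP-1 and with cytokines, where ADAMTS1 fell. ADAMTS5, an aggrecanase, read 554, 549 and 421 CPM in fractal THP-1 and 287, 254 and 248 CPM in smooth THP-1, against 61.3, 68.8 and 65.6 CPM in fractal controls and 105, 103 and 102 CPM in smooth controls. The rise was 2.96 ± 0.15 on the fractal surface (adjusted p 1.49e-12) and 1.35 ± 0.14 on the smooth surface (adjusted p 2.51e-07), with an interaction of 1.61 ± 0.20 (adjusted p 9.37e-06). In controls ADAMTS5 was lower on the fractal surface (-0.66 ± 0.14, adjusted p 0.0157), as it was under cytokines (-0.77 ± 0.14), so that the sign under THP-1 (0.95 ± 0.14, adjusted p 4.03e-05) was the reverse. Its mean under cytokines was 157 ± 9.16 CPM on the fractal and 268 ± 69.65 CPM on the smooth surface, above the controls on both. ADAMTS14, which trims procollagen, rose with THP-1 to 116 ± 8.94 CPM on the fractal surface, against 21.9 ± 1.35 CPM in fractal controls, and to 169.8 ± 12.2 CPM on the smooth surface, against 34.9 ± 0.690 CPM in smooth controls. ADAMTS6 fell with ADAMTS1 in all 4 comparisons with controls, with -2.40 ± 0.12 for THP-1 on the fractal surface, for example (adjusted p 1.87e-14). With THP-1 against controls, 7 of the 13 rose and 4 fell on the fractal surface, where 25.0% and 25.5% of all tested genes did, and 7 rose and 2 fell on the smooth surface, where 17.3% and 17.7% did. With cytokines 7 rose and 3 fell on the fractal surface, where 13.0% and 12.9% of all tested genes did. On the smooth surface 5 rose and 2 fell with cytokines, where 13.2% and 12.4% did.

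Of 17 inhibitors, activators and partners of these proteases, 16 were tested. Set aside were A2M, which passed the filter only through THP-1 libraries, and LCN2. LCN2 did not pass it when the libraries of either treatment or of either surface were left out. With THP-1 against controls, 3 of the other 14 rose and 7 fell on the fractal surface, where 25.0% and 25.5% of all tested genes did, and 2 rose and 5 fell on the smooth surface, where 17.3% and 17.7% did. LRP1, the endocytic receptor that clears MMP and TIMP complexes, averaged 1478 ± 209 CPM in fractal THP-1 and 602 ± 5.68 CPM in fractal controls, a rise of 1.29 ± 0.14 (adjusted p 2.35e-07), and its THP-1 interaction was 0.67 ± 0.20 (adjusted p 0.0309). The thrombospondins THBS1 and THBS2, matricellular proteins that bind MMP2, differed in sign. THBS2 averaged 243 ± 12.7 CPM in fractal THP-1 and 114 ± 7.70 CPM in smooth THP-1 (1.09 ± 0.12, adjusted p 2.99e-07). THBS1 averaged 235 ± 6.73 CPM in fractal THP-1 and 520.4 ± 36.9 CPM in smooth THP-1 (-1.15 ± 0.16, adjusted p 3.91e-05). FURIN, the convertase that activates MMP14, was the only gene of the list to pass in the controls, higher on the fractal surface by 0.41 ± 0.08 (adjusted p 0.00624), and it was lower there under THP-1 (-0.31 ± 0.08, adjusted p 0.00814).

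Of 21 matrix substrates, 19 were tested, of which COL3A1 passed the filter only through cytokine libraries on the fractal surface. With THP-1 against controls, 7 of the other 18 rose and 10 fell on the fractal surface (25.0% and 25.5% of all tested genes), and 6 rose and 10 fell on the smooth surface (17.3% and 17.7% of all tested genes). The type IV collagen gene COL4A1, a basement membrane component, averaged 855 ± 222 CPM in fractal THP-1 and 941 ± 42.7 CPM in smooth THP-1, against 3474 ± 69.1 CPM in fractal controls and 2842 ± 52.5 CPM in smooth controls. Its fall was -2.02 ± 0.12 on the fractal surface (adjusted p 7.88e-13) and -1.60 ± 0.12 on the smooth surface (adjusted p 1.30e-10). NID2, a nidogen, rose with both treatments on both surfaces.

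AP-1 and ETS factors bind the promoters of several MMP and TIMP genes, and all 14 on the list were tested. ETS1 fell under both treatments on both surfaces, with log2 fold changes of -0.87 ± 0.08 with THP-1 and -0.65 ± 0.08 with cytokines on the fractal surface and of -0.43 ± 0.08 and -0.54 ± 0.08 on the smooth surface (adjusted p 8.22e-05 at most). Fractal over smooth it was -0.60 ± 0.08 in THP-1 (adjusted p 2.40e-06). FOSL1, a partner of JUN in AP-1, averaged 28.1 ± 7.59 CPM in fractal THP-1 and 85.8 ± 7.59 CPM in smooth THP-1 (-1.60 ± 0.18, adjusted p 2.78e-06). FOS, by contrast, was higher on the fractal surface under THP-1 (1.01 ± 0.29, adjusted p 0.0171) and under cytokines, where it averaged 81.0 ± 4.41 CPM in fractal and 35.8 ± 13.1 CPM in smooth libraries (1.18 ± 0.21, adjusted p 0.00172). Without SPI1, which passed the filter only through smooth THP-1, the list had 2 of 13 higher and 4 lower on the fractal surface under THP-1, where 8.25% and 11.7% of all tested genes were, and 3 higher and 1 lower under cytokines, where 1.72% and 2.74% were.

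Over the 18 libraries, the protein-coding genes whose log2 CPM followed each gene most closely among 13074 ranked were PPP2CB, ETS2 and ETS1 for MMP1 (Pearson r 0.94, 0.94 and 0.93), IMPA2, CLSTN2 and GAA for MMP2 (0.98 each) and LIF, WNT5B and EFHD2 for MMP14 (0.94, 0.93 and 0.91). For ADAMTS1 they were HNRNPA3, GSPT1 and ANXA2 (0.99 each), for TIMP1 CALCOCO1, BCL6 and CLU (0.94, 0.93 and 0.93), and for TIMP2 THBS2, DHRS3 and HTRA1 (0.96, 0.95 and 0.94). MMP10 was followed least closely, by TNFRSF9, TNFRSF10B and C11orf68 (0.80, 0.74 and 0.74). TIMP3 was followed by A2M, LCP1 and C5AR2 (0.96 each), of which LCP1 and C5AR2 are known from leukocytes. These values are descriptions: the points are libraries of 6 groups that share treatments, so they mostly follow the group means.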

How the data were processed

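Total RNA was selected by poly-T and sequenced on a NovaSeq X Plus as paired reads of 150 bases without strand, per the labels' protocols. CASAVA, featureCounts 1.5.0-p3, HISAT2 2.0.5 and the build GRCh38 (hg38) are named in the submitters' processing notes. The values are raw counts, whole numbers deposited by the authors without normalization for 58735 genes in 18 libraries; the annotation used for counting is not given in the sources used here. Positions, exon lengths and gene types came from GENCODE 29.

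Counts were tested with edgeR 4.0.16 in R 4.3.3: TMM scaling, filterByExpr (minimum count 10, minimum total 15), which left 16129 genes, and 1 model fitted to all 6 groups (12 residual degrees of freedom; the biological coefficient of variation was 12.2%). Robust quasi-likelihood F-tests gave p-values, adjusted by Benjamini-Hochberg over all tested genes within each of 11 comparisons (9 of 2 groups and 2 interactions), with a threshold of 0.05. The SE was taken from the log2 fold change and its F statistic. Levels are CPM with TMM scaling. The code was tested on simulated counts.

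The members and lists were chosen with earlier results of these data known, so no list is independent evidence. Besides the 9 genes, the text could name from each list at most the 3 genes with the lowest adjusted p per direction, and the 3 genes most correlated with each of the 9 (log2 CPM, prior count 2). ITGB2 was chosen after its values were seen.

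Same-numbered replicates did not deviate together (r -0.176 to 0.119 over 27 pairs), so the numbers were not treated as pairs. Alternatives were DESeq2 1.42.0, limma-voom (limma 3.58.1), RLE and upper-quartile scaling, no filter, at least 1 CPM in 3 libraries, only the groups compared, the replicate block, leaving out each library, and leaving out the 2 libraries that stood apart. Figures used matplotlib 3.10.9 in Python 3.11.15.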

Additional observations from a re-analysis of the deposited data

Results flagged for a closer look

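The response to THP-1 macrophages, as a log2 fold change over controls, differed between the fractal and the smooth surface for 5 of the 7 genes tested other than TIMP3. Of all 16129 tested genes, 13.2% had such a difference past the threshold. The difference, fractal minus smooth, was -0.82 for MMP1, 0.81 for MMP2, -0.54 for MMP14, -0.95 for ADAMTS1 and 0.39 for TIMP2, each past the threshold in edgeR's interaction test (adjusted p 6.44e-06 to 0.0139). The fractal and smooth responses behind them were -1.07 and -0.25 for MMP1, 1.47 and 0.66 for MMP2, -0.16 and 0.38 for MMP14, -1.98 and -1.03 for ADAMTS1 and 0.46 and 0.07 for TIMP2. The sign of the difference was that of the fractal response in all 5, but the fractal response of MMP14 did not pass in edgeR's test (adjusted p 0.109). Nor did the smooth responses of MMP1 and TIMP2 (adjusted p 0.0558 and 0.492). The summed macrophage markers averaged 29.4 CPM in fractal THP-1 and 59.9 CPM in smooth THP-1 and 2.48 CPM in fractal controls and 2.43 CPM in smooth controls, and their part in these differences was not tested.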

How the results depend on the processing

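Over all alternatives, 1329 of the single-gene results kept direction and side of the threshold, 36 newly passed, 21 no longer passed and 24 changed sign; the causes were not tested. The replicate block changed 0 of 88 calls. No scaling moved the median of all genes by more than 0.09. Counts of the 8 genes past the threshold, TIMP3 included, moved as follows, with the share of all genes called in the same fit in brackets. TIMP3 passed the filter only through THP-1, so its calls for THP-1 over cytokines or over control are no test. They are part of the counts below for THP-1 over cytokines on the smooth surface and for THP-1 over control on the fractal surface. For fractal over smooth in controls the count of 0 (1.77%) was 1 with no filter (1.26%), 5 with only the groups compared (19.4%) and 3 without both libraries that stood apart (7.17%). In cytokines the count of 3 (4.46%) was 5 without both (9.42%). It was 1 to 3 when single libraries were left out (2.95% to 4.42%). The 1 was MMP1, without fractal cytokines replicate 2 (3.31%). TIMP1 there also lost its call with no filter (adjusted p 0.118) and with only the groups compared (0.420). For THP-1 over cytokines on the smooth surface the count of 4 (22.4%) was 7 without both (28.3%). It was 3 to 4 when single libraries were left out (16.5% to 18.6%). TIMP2 lost its call without 4 of the libraries. It also lost it with upper-quartile scaling, no filter or only the groups compared (adjusted p 0.0506, 0.0886 and 0.0809). For the interaction with cytokines the count of 0 (2.70%) was 1 with DESeq2 (4.62%), limma-voom (2.65%) or upper-quartile scaling (2.69%). It was also 1 with no filter (1.80%), the filter of 1 CPM (3.20%), only the groups compared (6.47%) or without both (8.82%). When single libraries were left out it was 0 to 1 (1.61% to 3.18%). The 1 was MMP2 without smooth cytokines replicate 3 and TIMP1 without replicate 2. Leaving out single libraries gave 5 to 6 for fractal over smooth in THP-1 (14.0% to 23.1%). There TIMP1 lost its call with no filter (adjusted p 0.0813) and limma-voom called TIMP3 (adjusted p 0.0487). With single libraries left out, the count was 6 to 7 for THP-1 over control on the fractal surface (43.0% to 51.6%). For the interaction with THP-1 it was 4 to 5 (9.73% to 19.6%).

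Changes of sign were all in values that did not pass the threshold. For fractal over smooth, ADAMTS1 in cytokines was 0.01 without both and -0.16 to 0.01 when single libraries were left out, and TIMP3 was then -2.68 to 1.75 in controls and -1.14 to 0.28 in cytokines. MMP10 for THP-1 over control on the smooth surface was -0.32 to 0.08 when single libraries were left out. For THP-1 over cytokines on the fractal surface, TIMP2 was -0.03 without both and -0.03 to 0.09 when single libraries were left out, MMP1 was 0.00 with upper-quartile scaling and -0.12 to 0.00 when single libraries were left out, and MMP10 was 0.04 with limma-voom, 0.03 with upper-quartile scaling, 0.03 without both and -0.17 to 0.34 when single libraries were left out. When single libraries were left out, the interaction of TIMP3 was -2.00 to 2.43 for cytokines and -3.05 to 1.37 for THP-1, and that of MMP10 for THP-1 was -0.35 to 0.05. Low counts limit what can be said of TIMP3 and MMP3.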
